A study of Mus musculus with 24 samples.

Results

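Serine and glycine were withdrawn from the medium of Phgdh knockout (KO) pancreatic cancer cells grown without hepatocytes, and the change of every measured transcript is described here. The contrast holds 6 of the 24 RNA-seq libraries of a mouse study, 3 of KO cells in serine/glycine-free medium and 3 of KO cells under the submitters' standard conditions with both amino acids. Of 54532 annotated genes, 12061 reached 1 FPKM (fragments per kilobase of exon and per unit of library depth) in at least 3 of the 24 libraries, and these are the genes described. All cells were HY19636, a mouse pancreatic ductal adenocarcinoma (PDAC) line. The groups set against this contrast were KO cells cocultured with hepatocytes in serine/glycine-free medium, KO cells cocultured with hepatocytes in medium with both amino acids, and Phgdh wild-type (WT) cells in monoculture in serine/glycine-free medium and with both amino acids, each with 3 libraries. WT cells cocultured with hepatocytes, again in either medium, entered the fit only. The sources used here do not say how long serine and glycine were withheld, whether the KO is 1 clone or several, or how cancer cells were separated from hepatocytes.

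Phgdh, 3-phosphoglycerate dehydrogenase, catalyses the first committed step by which cells make serine from the glycolytic intermediate 3-phosphoglycerate. Serine is in turn the main source of glycine and of the folate-bound one-carbon units used for purine and thymidylate synthesis, and it enters proteins, sphingolipids, phosphatidylserine and, through cysteine, glutathione. Cells without this enzyme depend on serine from outside. Amino acid shortage is known to raise translation of ATF4, a transcription factor that induces amino acid synthesis and transport genes.

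The 24 libraries held 15740081 to 23479425 reads over genes, recovered from the FPKM values. The 3 KO libraries without serine and glycine lay at 80.8, 76.5 and 77 on the first principal component, which held 43.2% of the variance, while the 21 other libraries lay between −23.6 and 13.2. Replicate 1 stood apart within both KO monoculture groups: its correlation with replicates 2 and 3 was 0.9879 and 0.9882 without serine and glycine and 0.9666 and 0.9704 with them, while replicates 2 and 3 correlated at 0.9927 without and 0.993 with them. The KO coculture libraries without serine and glycine also scattered. Their replicates 1 and 2 correlated at 0.9732, replicates 1 and 3 at 0.9857 and replicates 2 and 3 at 0.9844. The summed level of 10 ductal markers was 4990 to 5090 FPKM without serine and glycine and 2080 to 2250 FPKM with them, carried mainly by Krt18 and Krt8, with Epcam under 1 FPKM in all 6 libraries. Of 18 hepatocyte markers, 15 were under 1 FPKM and 11 were at 0 in all 6 libraries, and the list summed to 18.2 to 19.9 FPKM without serine and glycine and 14.3 to 17.8 FPKM with them, mostly Hnf4a. Macrophage and leukocyte markers, mainly Cd14 and Cd68, summed to 2.15 to 3.71 FPKM without and 5.42 to 8.5 FPKM with serine and glycine, and 8 of the 14 were at 0. Of 9 endothelial, 12 fibroblast and 11 acinar or islet markers, Pdgfra alone, at up to 1.39 FPKM with serine and glycine, reached 1 FPKM in any of the 6 libraries. The part of these marker levels in the results below was not tested. No transcript checks which medium a library had, so the labels were taken as given, and an exchange of the 2 KO monoculture groups would turn the sign of every change in this contrast.

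Withdrawal moved most of the measured transcripts. A gene was counted as having risen or fallen when its Benjamini-Hochberg adjusted p over all 12061 genes was under 0.05 in limma's test on log2(FPKM + 1), and fold changes below are on that scale, which understates changes of low transcripts; ± marks the standard error on log2 changes and the SD on FPKM means. In KO monoculture 8534 genes passed (70.8%), of which 4372 rose (36.2%) and 4162 fell (34.5%). The counts for gene lists below are to be read against these shares. At least 2-fold rises numbered 1099 (9.11%) and at least 2-fold falls 1157 (9.59%). At least 4-fold changes numbered 108 rises and 149 falls, and at least 8-fold changes 19 rises and 23 falls. In 8101 genes (67.2%) the 3 libraries without serine and glycine did not overlap the 3 with them. The labels number the replicates without saying whether they were grown separately, and the p-values therefore rest on a scatter among libraries that may be technical only.

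The same withdrawal moved transcripts less in the other 2 settings. The median absolute log2 change was 0.495 in KO monoculture, 0.188 in KO coculture and 0.0875 in WT monoculture. In WT monoculture 4 genes rose at least 2-fold. The difference between the KO and the WT response was itself past the threshold for 7385 genes (61.2%), 3786 of them with the higher value in KO cells (31.4%) and 3599 with the lower (29.8%). The difference between the KO response in monoculture and in coculture passed for 6962 genes (57.7%), 3597 with the higher response in monoculture (29.8%) and 3365 with the lower (27.9%). Across the 12061 genes, which are not independent replicates, the KO monoculture changes had a Pearson r of 0.32 with those in KO coculture and of −0.04 with those in WT monoculture, each contrast being made of its own libraries.

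**Figure D1:**
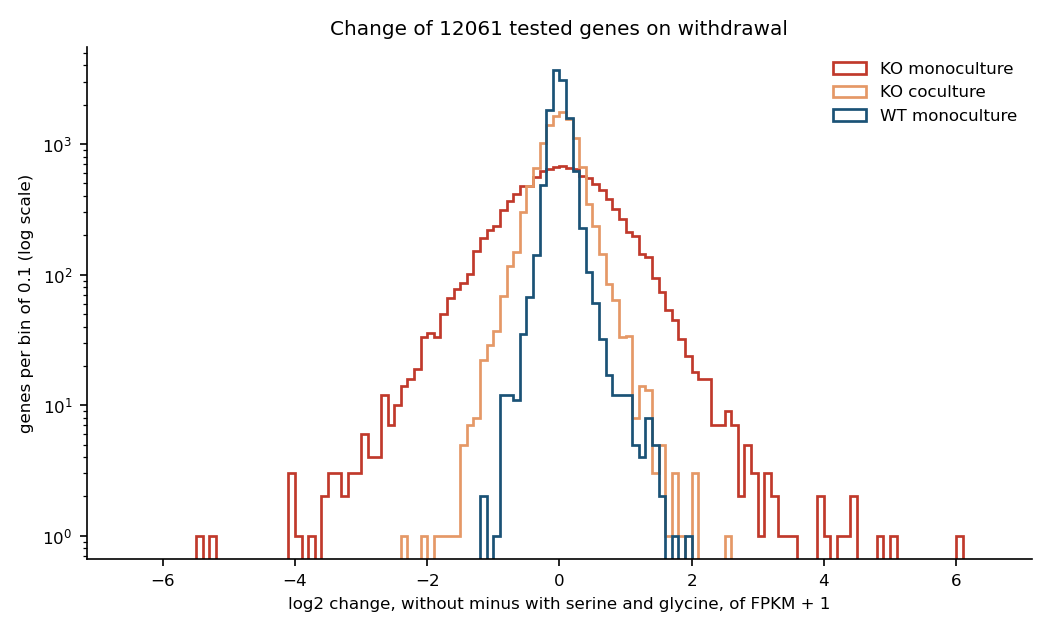
Number of genes (log axis) by log2 change of FPKM + 1 on serine and glycine withdrawal, in bins of 0.1, for 12061 genes in KO monoculture, KO coculture and WT monoculture. The KO monoculture distribution is the widest of the 3, with an SD of 0.81 against 0.335 in KO coculture and 0.179 in WT monoculture.

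The changed transcripts mostly left the range of the whole series in KO cells without serine and glycine, not in KO cells with them. Among the 1099 genes that rose at least 2-fold, 949 (86.4%) had all 3 of the KO monoculture libraries without serine and glycine above all 21 other libraries, and over all tested genes this held for 2831 (23.5%). Among the 1157 that fell at least 2-fold, 1003 (86.7%) had those 3 libraries below all 21 others, and over all tested genes 2538 did (21.0%). The KO monoculture libraries with serine and glycine were below all others for 72 of the risen genes (6.55%; 1.5% of all tested genes) and above all others for 73 of the fallen genes (6.31%; 1.74% of all tested genes). The risen and fallen genes were chosen by the values of these same libraries, so the shares are a description and no test. A gene that reached 1 FPKM only in the 3 libraries without serine and glycine lies above all 21 others by construction. Such genes enter both the 86.4% and the 23.5%, and they were not counted. The 100 most abundant genes took 17.7% to 17.8% of reads in KO cells without serine and glycine and 22.8% to 23.4% in KO cells with them.

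Phgdh itself was transcribed in all KO libraries. The gene (ENSMUSG00000053398, chromosome 3, 98313170 to 98339990 in GRCm38) had 616, 732 and 737 FPKM in KO cells without serine and glycine, and 372, 548 and 529 FPKM in KO cells with them. The groups did not overlap and the transcript rose by 0.54 ± 0.12 (adjusted p = 0.000371), with 0.36 without replicate 1 of the group with serine and glycine and 0.84 after quantile normalization. The change in WT monoculture was −0.20 (adjusted p = 0.536; means of 800 FPKM without and 922 FPKM with serine and glycine), and the KO response exceeded it by 0.74 (adjusted p = 0.000634). The sources used here do not name the edited part of the gene, so a gene-level FPKM does not check the loss of the enzyme.

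The largest rises joined epithelial differentiation genes, growth factor ligands, a clock repressor and replication genes. Sprr1a, which encodes a small proline-rich protein of the cornified envelope of squamous epithelia (chromosome 3, 92483952 to 92485895), had 834, 905 and 905 FPKM in KO cells without serine and glycine and 13.5, 12.2 and 11.9 FPKM in KO cells with them. It rose by 6.03 ± 0.06 (adjusted p = 2.21e-23), and the libraries without serine and glycine were above both WT groups, which averaged 177 FPKM without and 164 FPKM with serine and glycine. Ivl, involucrin, another cornified envelope protein, had 21.6, 19.5 and 22.2 FPKM without and 0.159, 0.514 and 0.328 FPKM with serine and glycine, a rise of 4.06 ± 0.11. Nr1d1, the nuclear receptor REV-ERB alpha that represses clock genes, had 123, 152 and 144 FPKM without and 3.09, 3.38 and 3 FPKM with serine and glycine, a rise of 5.07 ± 0.10 (adjusted p = 1.88e-18). WT cells had close to the KO level with serine and glycine, at 3.13 FPKM without and 2.69 FPKM with them. Mmp13, a collagenase, rose by 4.36 ± 0.12, with 173, 146 and 146 FPKM without and 8.23, 5.6 and 6.05 FPKM with serine and glycine. Dynap rose by 4.83, Fam84a by 4.24, Gimd1 by 3.93 and the zinc finger factor Plagl1 by 3.22, and none of their groups overlapped. All the genes named in this paragraph also rose in KO coculture, by 0.38 for Plagl1 up to 2.54 for Ivl. There Ivl averaged 24.7 FPKM without and 3.42 FPKM with serine and glycine, and Mmp13 65.3 FPKM without and 14.6 FPKM with them.

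The largest falls included desaturases, surface proteins of differentiated epithelium and detoxification genes. Scd2, a stearoyl-CoA desaturase that puts the double bond into oleate (chromosome 19, 44293676 to 44306864), had 12.9, 13.7 and 13.8 FPKM in KO cells without serine and glycine and 549, 674 and 669 FPKM in KO cells with them. It fell by 5.44 ± 0.07 on the log2 scale (adjusted p = 1.07e-21), while WT means were 428 FPKM without and 397 FPKM with serine and glycine. Lgals4, a galectin of gut-type epithelium, had 2.14, 2.49 and 3.25 FPKM without and 99.8, 158 and 150 FPKM with serine and glycine, a change of −5.22 ± 0.14. In RNA from whole cultures, fewer cells that hold a transcript and less of it per cell cannot be told apart. Muc1, a membrane mucin, changed by −3.49, Plac8 by −3.44, the secreted Igfbp7 by −4.08, the glutathione transferase Gstm1 by −4.01, the organic anion transporter Slco4a1 by −3.91 and the pantetheinase Vnn1 by −3.57. Gapdh, the glycolytic dehydrogenase, was among the falls by rule, but its libraries scattered: 0.633, 15 and 1.02 FPKM without and 30.7, 82.3 and 48.2 FPKM with serine and glycine. Its change of −3.76 ± 1.26 (adjusted p = 0.0123) lost its call without replicate 1 of the group without serine and glycine (−3.16, adjusted p = 0.0567), and its many processed pseudogenes make its FPKM uncertain.

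**Figure D2:**
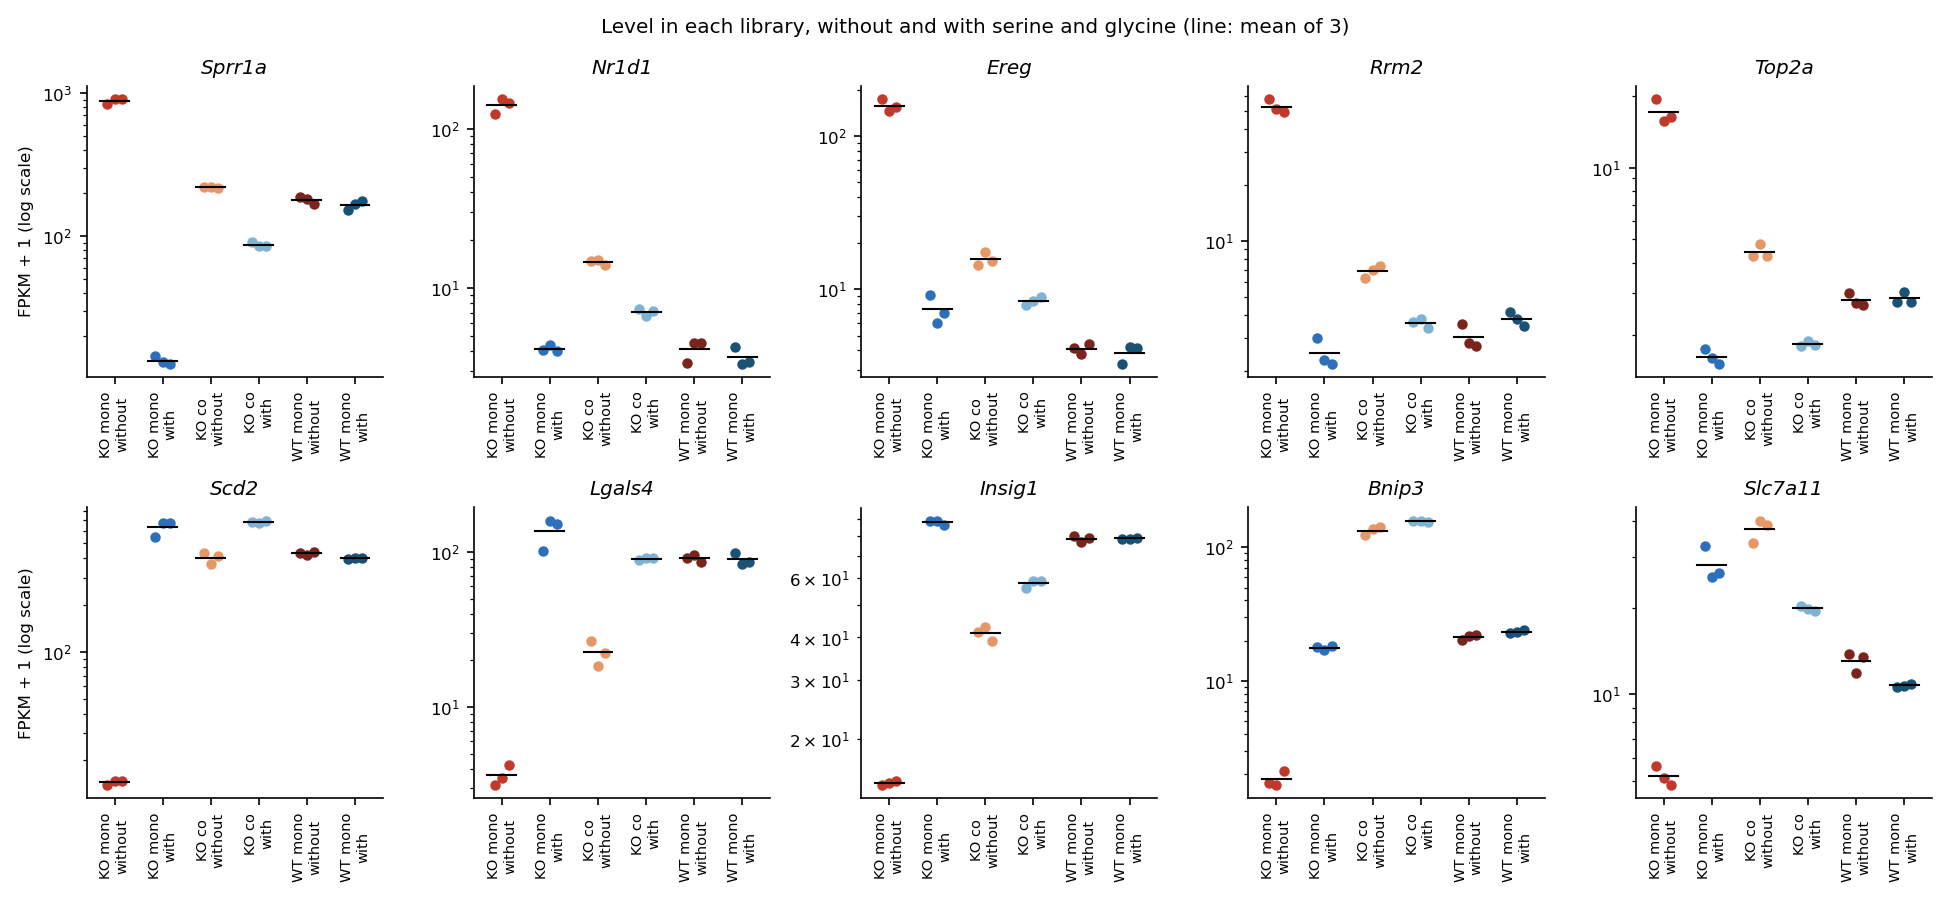
FPKM + 1 (log axis) in every library of KO and WT monoculture and KO coculture, without and with serine and glycine, for 5 genes that rose and 5 that fell; each point is a library and each line a group mean. In KO monoculture the groups of all 10 genes are separate, as for Sprr1a at 834 to 905 FPKM without and 11.9 to 13.5 FPKM with serine and glycine.

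Genes of DNA replication and mitosis were higher without serine and glycine. Of 50 tested members of the replication and S phase list, 44 rose and the other 6 were not called, 25 rose at least 2-fold, and the median log2 change was 1.01 (median of all tested genes 0.00). Of 50 tested mitosis and cytokinesis genes, 47 rose, 38 of them at least 2-fold, with a median of 1.38. The exceptions were Pttg1, the securin that holds separase inactive, with 1.2, 1.19 and 1.38 FPKM without and 4.9, 5.51 and 6.11 FPKM with serine and glycine, and Knstrn, a spindle-associated protein, which changed by −1.19. Pttg1 and Knstrn were the 2 members of their list that fell. Of the 51 listed S phase genes 40, and of the 55 listed mitosis genes 16, were at 1 FPKM or more in all 6 KO monoculture libraries. A gene at 1 FPKM only in the 3 libraries without serine and glycine passed the filter through them. Such a gene could only come out higher. Without replicate 1 of both groups, and with the filter applied again, 42 mitosis genes rose. Genes that reached 1 FPKM only in the group without serine and glycine then left the tested set, so the 42 are not out of the same 50.

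Rrm2, the small subunit of ribonucleotide reductase that makes deoxynucleotides, had 56.9, 50.4 and 48.3 FPKM in KO cells without serine and glycine and 1.99, 1.28 and 1.19 FPKM in KO cells with them, a rise of 4.42 ± 0.12 (adjusted p = 1.42e-16). Top2a, the topoisomerase that untangles replicated DNA, had 18.3, 14.7 and 15.3 FPKM without and 0.734, 0.602 and 0.515 FPKM with serine and glycine, a rise of 3.40 ± 0.08. Mki67, the proliferation marker Ki-67, had 6.74, 5.79 and 6.09 FPKM without and 0.298, 0.131 and 0.112 FPKM with serine and glycine. All 3 genes were separate between the groups. The WT monoculture means of Rrm2, 2.04 FPKM without and 2.82 FPKM with serine and glycine, lay far below the KO mean without them (51.9 FPKM). With serine and glycine, all 3 KO monoculture means lay below the WT means. They were 1.48 against 2.82 FPKM for Rrm2, 0.617 against 1.84 FPKM for Top2a and 0.18 against 0.405 FPKM for Mki67. Mcm5, a subunit of the replicative helicase, rose by 3.56 ± 0.09, and Cdc6, which loads that helicase, by 2.95 ± 0.09. Pcna and Mcm2, which were more abundant, changed less. Pcna, the sliding clamp, had 108, 95.7 and 102 FPKM without and 51, 49.8 and 47.6 FPKM with serine and glycine, a rise of 1.03, and Mcm2 rose by 0.97. Among mitotic genes, cyclin A2 (Ccna2) rose by 2.95, the kinesin Kif11 by 2.16, cyclin B1 (Ccnb1) by 2.13 and the kinase Cdk1 by 1.65.

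Sites of the E2F family, the transcription factors that drive S phase genes, were looked for as TTTGGCGC or TTTCCCGC on either strand in the 250 bases before each RefSeq gene start (GRCm38.p6). The 6 S phase genes with a match, of 41 with a start in the table, make 14.6%, and 265 of 8459 tested genes (3.13%) held one. Their changes were 3.56 for Mcm5, 2.95 for Cdc6, 1.66 for Pola1, 1.35 for Mcm6, 0.88 for Gins3 and 0.32 for Mcm7. The stretches around the sites of Mcm5 and Cdc6, the 2 matching genes with the largest rises, are shown 5′ to 3′ in the direction of the gene with the site in capitals; both sites read as the reverse complement. The Mcm5 stretch is chr8:75109315-75109412 and the Cdc6 stretch chr11:98907968-98908065, both on the plus strand, and Rrm2, Mcm3 and Cdc45 had no match in this window.
Mcm5: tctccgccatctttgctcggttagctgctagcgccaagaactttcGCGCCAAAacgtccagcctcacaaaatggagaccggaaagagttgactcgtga
Cdc6: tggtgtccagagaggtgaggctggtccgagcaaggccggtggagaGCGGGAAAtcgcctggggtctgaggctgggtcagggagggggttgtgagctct

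Of 39 tested members of the list of G1 regulators, p53 targets and cell cycle inhibitors, 16 rose (41.0%) and 10 fell (25.6%), against 36.2% and 34.5% of all tested genes, with a median of 0.02. Cyclin D1 (Ccnd1), which starts G1 progression, had 77.5, 84.5 and 82.5 FPKM without and 22.2, 24.5 and 25.1 FPKM with serine and glycine, a rise of 1.73 ± 0.05. Cdkn1a, the p21 inhibitor of cyclin-dependent kinases, also rose, with 38.5, 49 and 47.1 FPKM without and 15.6, 22 and 23.4 FPKM with serine and glycine (1.12 ± 0.11). The kinase gene Cdk6 rose by 1.51, the retinoblastoma relative Rbl1 by 2.19, E2f1 by 1.19 and Trp53, the gene of p53, by 0.95. Myc, a growth-promoting transcription factor, had 285, 319 and 322 FPKM without and 137, 162 and 164 FPKM with serine and glycine, a rise of 1 ± 0.07. Of 29 tested DNA repair genes 17 rose and 6 fell, with a median of 0.60, but the median was 0.25, and 12 rose and 4 fell, without replicate 1 of both groups. Without any single library of the group lacking serine and glycine, 11 rose. The filter of 1 FPKM in 3 libraries was applied again in these runs. Genes that reached 1 FPKM only in that group then left the tested set, and such genes could only have been counted as risen. Clspn, claspin, an adaptor of the replication checkpoint, rose by 2.13.

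Most nucleotide synthesis genes rose. Of 30 purine and pyrimidine synthesis genes, 20 rose and 6 fell, with a median of 0.69. Adsl, an enzyme of purine synthesis, had 32, 36.2 and 35.8 FPKM without and 8.63, 8.82 and 8.61 FPKM with serine and glycine, a rise of 1.88 ± 0.08, and Atic, which closes the purine ring, rose by 1.34. Nme1 and Nme2 rose by 1.40 and 1.77, but they are near-identical neighbours and the sharing of their reads is uncertain. Of 24 tested folate, glycine cleavage and methionine cycle genes, 12 rose (50%) and 9 fell (37.5%). Tyms, the thymidylate synthase, had 4.5, 4.24 and 4.42 FPKM without and 1.64, 1.55 and 1.24 FPKM with serine and glycine, a rise of 1.13 ± 0.08. The methionine synthase Mtr rose by 1.08 and the mitochondrial one-carbon enzyme Mthfd2 by 0.44, while the glycine cleavage gene Amt changed by −1.3. Gldc, the glycine decarboxylase, did not pass, with 6.09, 5.52 and 5.76 FPKM without and 6.15, 5.67 and 5.09 FPKM with serine and glycine.

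The 2 serine hydroxymethyltransferases, which convert serine to glycine, moved in opposite directions. Mitochondrial Shmt2 had 42.6, 48.6 and 48 FPKM without and 124, 155 and 158 FPKM with serine and glycine, a change of −1.62 ± 0.08 (adjusted p = 3.52e-13). Cytosolic Shmt1 had 11.1, 11.4 and 11.9 FPKM without and 4.64, 3.76 and 4.09 FPKM with serine and glycine, a rise of 1.28 ± 0.08 (adjusted p = 1.49e-11). The groups did not overlap for either gene, and the KO response differed from the WT response for both, by −1.65 and 1.34. The mitochondrial serine carriers split likewise, Sfxn1 rising by 0.95 and Sfxn3 changing by −1.17. Downstream of Phgdh, the aminotransferase Psat1 rose by 0.28 ± 0.05 (0.15 and adjusted p = 0.0711 after quantile normalization), with 173, 168 and 170 FPKM without and 154, 133 and 133 FPKM with serine and glycine. The phosphatase Psph overlapped between the groups and did not pass, at 0.11 ± 0.06 (adjusted p = 0.125). It passed, at 0.15 (adjusted p = 0.0475), without replicate 1 of the group without serine and glycine. Over the 15 tested genes of serine synthesis and transport, 5 rose (33.3%) and 7 fell (46.7%).

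The ATF4 and amino acid response list had nearly the shares of all tested genes. Of its 41 tested members 18 rose (43.9%) and 16 fell (39.0%), against 36.2% and 34.5% of all tested genes, with a median of 0.09. Atf5, a relative of ATF4 induced with it, had 325, 403 and 404 FPKM without and 50.3, 133 and 129 FPKM with serine and glycine, a rise of 1.97 ± 0.28. Trib3, a pseudokinase induced in this response, rose by 1.29, Ppp1r15a, the GADD34 subunit that dephosphorylates eIF2 alpha, by 1.26, Ddit3, the CHOP transcription factor, by 0.72 and the asparagine synthetase Asns by 0.40. Among the members that fell, Slc7a11, the cystine importer, had 4.66, 4.12 and 3.85 FPKM without and 31.8, 24.5 and 25.3 FPKM with serine and glycine, a change of −2.43 ± 0.09 (adjusted p = 1.01e-14). Its partner Slc3a2 had 103, 124 and 122 FPKM without and 393, 496 and 484 FPKM with serine and glycine, a change of −1.96, and the mitochondrial PEP carboxykinase Pck2 changed by −1.82 and the bZIP factor Jdp2 by −1.65.

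Atf4 mRNA rested on 1 library. It had 350, 359 and 349 FPKM in KO cells without serine and glycine and 155, 305 and 300 FPKM in KO cells with them, a rise of 0.54 ± 0.20 (adjusted p = 0.0194). Without replicate 1 of the group with serine and glycine the change in Atf4 was 0.22 (adjusted p = 0.186), and with only the 2 groups in the fit its adjusted p was 0.126. ATF4 is regulated mainly through its translation, which these data do not measure. The 15 tested amino acid transporters gave 4 rises and 8 falls, Slc38a2, a neutral amino acid transporter, changing by −0.71 and the glycine transporter Slc6a9 by −1.03. Of 20 cytosolic aminoacyl-tRNA synthetases, which charge tRNAs, 13 rose and 3 fell: Aars had 103, 114 and 110 FPKM without and 45.2, 43.5 and 45.5 FPKM with serine and glycine, and Qars, at 11.2, 12.7 and 10.9 FPKM without and 45.6, 42.9 and 42.9 FPKM with them, changed by −1.83.

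**Figure D3:**
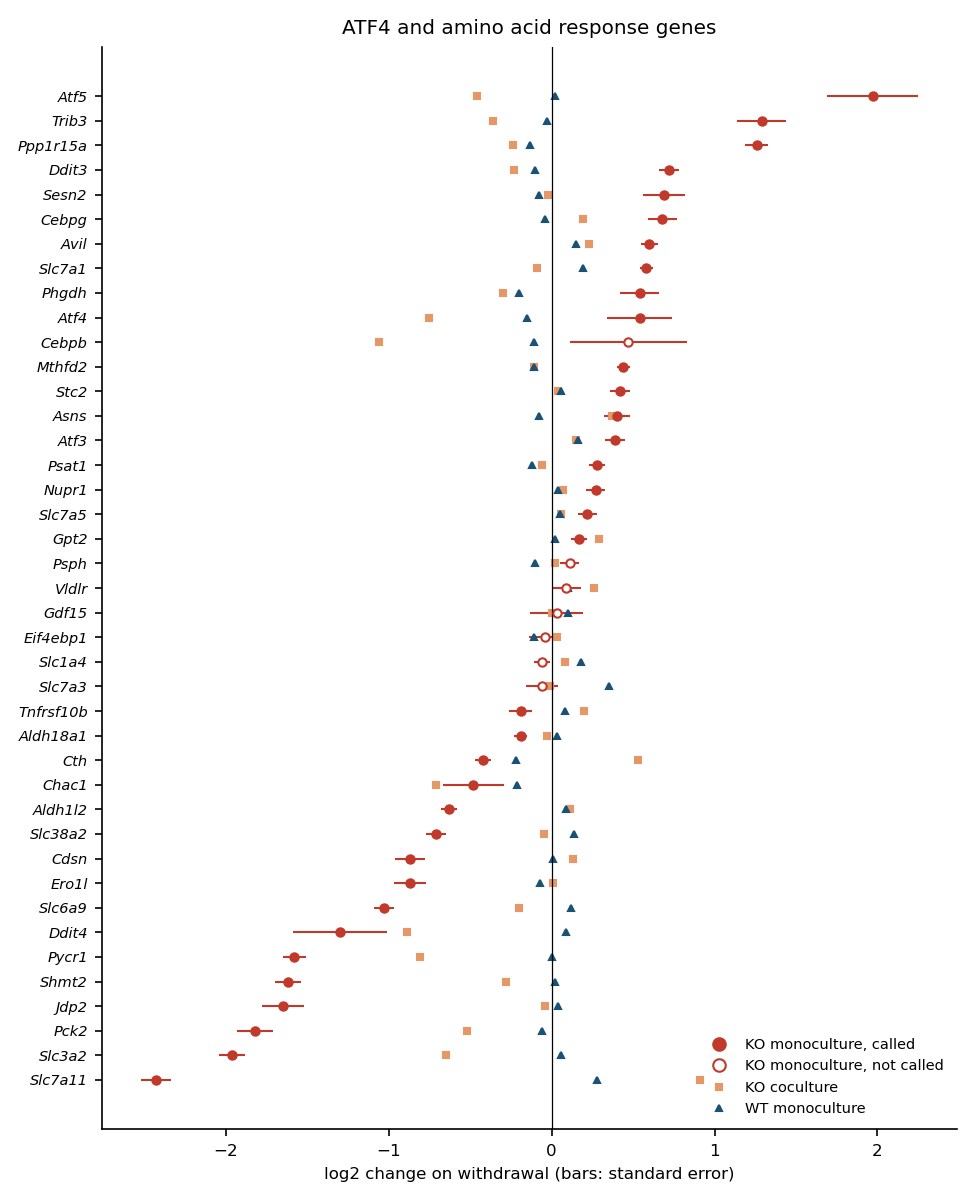
Log2 change on withdrawal, with SE, of the 41 tested genes of the ATF4 and amino acid response list in KO monoculture (circles, filled where called), with the KO coculture (squares) and WT monoculture (triangles) changes beside them. The KO monoculture values run from −2.43 for Slc7a11 to 1.97 for Atf5, on both sides of 0.

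The C/EBP-ATF response element, to which ATF4 binds with a C/EBP partner, was looked for as TGATGNAA on either strand in the same 250-base windows. It was found before 10 of 34 list genes with a start in the table (29.4%), against 193 of 8459 tested genes (2.28%). The log2 changes of those 10 genes ran on both sides of 0, with Slc7a11 at −2.43, Pck2 at −1.82, Jdp2 at −1.65, Pycr1 at −1.58, Chac1 at −0.48, Vldlr at 0.09, Nupr1 at 0.27, Atf3 at 0.39, Asns at 0.40 and Avil at 0.60. Atf5 and Slc3a2 had no match in this window. The stretches of the 3 matching genes with the largest falls are shown 5′ to 3′ in the direction of the gene, the element in capitals to give the letters of the element with its context. They are chr3:50443614-50443724 on the minus strand for Slc7a11, chr12:85599338-85599415 on the plus strand for Jdp2 and chr14:55540118-55540215 on the plus strand for Pck2. A match is a description of the letters, not of binding.
Slc7a11: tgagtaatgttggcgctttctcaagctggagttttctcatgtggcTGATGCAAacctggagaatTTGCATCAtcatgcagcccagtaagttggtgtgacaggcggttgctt
Jdp2: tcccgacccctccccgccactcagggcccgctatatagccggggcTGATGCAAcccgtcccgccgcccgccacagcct
Pck2: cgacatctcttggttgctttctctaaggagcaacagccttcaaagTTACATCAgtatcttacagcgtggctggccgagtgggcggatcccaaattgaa

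Cholesterol synthesis fell almost as a whole. Of 31 tested members of the cholesterol and SREBP2 list, 30 fell, 22 of them at least 2-fold, with a median of −1.43. Npc1, which exports cholesterol from lysosomes, was the 1 member that rose, by 0.99. Insig1, which holds the SREBP activation complex in the ER and is itself an SREBP target, had 13.6, 13.8 and 14 FPKM without and 87.8, 87.7 and 85.3 FPKM with serine and glycine, a change of −2.57 ± 0.04 (adjusted p = 7.39e-20). Sqle, the squalene epoxidase, had 17.3, 16.2 and 16.6 FPKM without and 41.3, 36.8 and 36.8 FPKM with serine and glycine, a change of −1.15 ± 0.05 (adjusted p = 4.86e-13). Libraries did not overlap for either gene. The isomerase Idi1 changed by −2.65, the sterol dehydrogenase Nsdhl by −2.48 and the transcription factor gene Srebf2 by −1.53. A sterol regulatory element written as TCACNCCAC was found before 1 of 22 list genes with a start in the table (4.55%), against 103 of 8459 tested genes (1.22%).

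Most fatty acid synthesis and desaturation genes fell. Of 24 tested genes 17 fell and 7 rose, with a median of −0.5, and 4 rose without replicate 3 of the group with serine and glycine. Scd1, a desaturase like Scd2, had 30.5, 26.9 and 27 FPKM without and 246, 194 and 206 FPKM with serine and glycine, a change of −2.89 ± 0.08. Fads2 and Fads1, the delta-6 and delta-5 desaturases of polyunsaturated fatty acids, changed by −4.01 and −2.19, the fatty acid synthase Fasn by −1.51, its regulator Srebf1 by −1.32 and the acetyl-CoA carboxylase Acaca, the first committed enzyme, by −0.44. Of these genes, the desaturases had the most negative values. The sphingolipid and phosphatidylserine list, which uses serine as a substrate, gave 11 rises and 11 falls of 28 tested (39.3% each), with a median of 0.05. Sptlc1 and Sptlc2, the 2 chains of serine palmitoyltransferase, changed by 0.49 and −0.62.

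Glycolysis and hypoxia-inducible genes fell. Of 21 tested glycolysis genes 15 fell and 3 rose, with a median of −1.10. Eno1, the main enolase, had 38.6, 41 and 41.6 FPKM without and 198, 233 and 229 FPKM with serine and glycine, a change of −2.41 ± 0.06. Ldha, lactate dehydrogenase A, had 104, 117 and 113 FPKM without and 217, 287 and 279 FPKM with serine and glycine, a change of −1.21 ± 0.08, and Aldoc changed by −2.97 and the phosphofructokinases Pfkm and Pfkl by −2.54 and −1.96. Hexokinase 2 (Hk2) moved little, by −0.27. Of 25 tested hypoxia targets 20 fell and 5 rose, with a median of −0.99. Bnip3, a mitophagy receptor induced by HIF, had 0.729, 0.665 and 1.11 FPKM without and 17, 16.1 and 17.1 FPKM with serine and glycine, a change of −3.28 ± 0.07. Pdk1, which blocks pyruvate dehydrogenase, changed by −2.68 and the prolyl hydroxylase Egln3 by −2.56. Hif1a mRNA had 65.3, 53.4 and 55.3 FPKM without and 60.4, 40.9 and 41.8 FPKM with serine and glycine. Its groups overlapped, its change was 0.29 ± 0.12 (adjusted p = 0.0314; 0.47 and adjusted p = 0.000185 without replicate 1 of the group with serine and glycine), and that call was lost without replicate 1 of the group without serine and glycine (0.21, adjusted p = 0.155) and without replicate 2 (0.20, adjusted p = 0.169) or replicate 3 (0.21, adjusted p = 0.149) of the group with them.

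Ribosome assembly factors and ribosomal proteins moved in opposite directions. Of 50 ribosome biogenesis genes 42 rose and 5 fell, with a median of 0.74. Bop1, a processing factor of the large subunit, had 54.7, 66.8 and 67 FPKM without and 15.5, 19.7 and 20.2 FPKM with serine and glycine, a rise of 1.72 ± 0.12, and the nucleolar helicase Ddx21 rose by 1.48. Of 64 cytosolic ribosomal protein genes 49 fell and 1 rose, with a median of −0.76. Rpl10 had 245, 229 and 229 FPKM without and 743, 867 and 836 FPKM with serine and glycine, a change of −1.79 ± 0.05, and Rps4x changed by −1.65. Ribosomal protein genes have many processed pseudogenes, so their single values are uncertain. The elongation factors Eef2 and Eef1a1, whose mRNAs belong to the same translationally controlled class, changed by −1.62 and −1.52, while the initiation factor gene Eif2s1 rose by 1.22. Of 13 tested noncoding hosts of small nucleolar RNAs and related transcripts 9 fell and 2 rose: Gas5 had 46.7, 41.1 and 43.3 FPKM without and 166, 154 and 140 FPKM with serine and glycine, Snhg5 changed by −2.10, and Snhg15 rose by 1.67.

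Proteasome and respiratory chain genes rose. Of 31 proteasome genes 28 rose and 2 fell, with a median of 0.76. Psmc2, an ATPase of the regulatory particle, had 145, 138 and 140 FPKM without and 41.4, 29.9 and 32.2 FPKM with serine and glycine, a rise of 2.01 ± 0.09. Of 46 nuclear genes of the respiratory chain 34 rose and 3 fell, with a median of 0.60. Cytochrome c (Cycs) had 65.4, 60.6 and 59.8 FPKM without and 17.1, 16.9 and 14.2 FPKM with serine and glycine, a rise of 1.89 ± 0.07. Of the 13 mitochondrially encoded genes 3 rose and 2 fell, mt-Cytb rising by 0.98 (1.83 after quantile normalization) and mt-Co1 changing by −0.62 (−0.14, adjusted p = 0.729, after quantile normalization). Both falls lost their call with only these groups in the fit, and without replicate 1 of both groups 4 genes fell. Leaving out replicate 2 or 3 of the group without serine and glycine, or replicate 1 of the group with them, left 1 fall. Among the rises, mt-Nd4l (0.48, adjusted p = 0.0355) lost its call after quantile normalization (0.39, adjusted p = 0.0928). It also lost it without replicate 1 of both groups (0.35, adjusted p = 0.21). The share of reads from the mitochondrial genome was 2.37%, 1.92% and 2.02% without and 2.92%, 2.11% and 2.33% with serine and glycine, replicate 1 being the highest in each group. Of 42 tested lysosome and autophagy genes 22 fell and 12 rose, the autophagy gene Wipi1 changing by −2.39 and the proton pump subunit Atp6v0d1 rising by 1.3.

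Chaperones of the endoplasmic reticulum fell. Of 30 tested members of the unfolded protein response list 24 fell and 4 rose, with a median of −0.60. Derl3, part of the machinery that retrotranslocates misfolded proteins, had 0.286, 0.391 and 0.44 FPKM without and 7.68, 13.4 and 13.3 FPKM with serine and glycine, a change of −3.15 ± 0.16. Hspa5, the chaperone BiP, changed by −0.57 (−0.22 after quantile normalization), the transcription factor Xbp1 by −0.89, the kinase gene Eif2ak3 (PERK) by −1.32 and the disulfide isomerase Pdia4 by −1.39, whereas the sensor Ern1 (IRE1) rose by 0.94. Ddit3 and Ppp1r15a, which also act downstream of PERK, rose as given above. Of 24 tested heat shock chaperones 12 rose (50%) and 10 fell (41.7%): Hspa8, the constitutive HSC70, had 273, 243 and 246 FPKM without and 2020, 1430 and 1470 FPKM with serine and glycine, Hsp90ab1 changed by −1.95, and the cochaperone Stip1 rose by 1.56.

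Antioxidant genes fell more often than they rose. Of 37 tested NRF2, glutathione and cystine supply genes 23 fell, 13 of them at least 2-fold, and 11 rose. Fth1, the ferritin heavy chain that stores iron, had 1090, 1240 and 1250 FPKM without and 4490, 5270 and 5270 FPKM with serine and glycine, a change of −2.07 ± 0.07. The pentose phosphate dehydrogenase Pgd changed by −2.12 and the sulfiredoxin Srxn1 by −2.0. Glutathione synthesis itself was uneven, the synthetase Gss rising by 0.87 and the ligase subunit Gclm changing by −0.29 (−0.19 without replicate 1 of both groups). The catalytic subunit gene Gclc had 42.3, 41.7 and 40.9 FPKM without and 58.5, 43.1 and 45.6 FPKM with serine and glycine, a change of −0.22 that was −0.09 (adjusted p = 0.241) without replicate 1 of the group with them, and its call was also lost without replicate 2 (adjusted p = 0.0544) or replicate 3 (adjusted p = 0.0702) of the group without them. Nfe2l2, the gene of NRF2, overlapped between the groups and did not pass, at 0.05 ± 0.11 (adjusted p = 0.674). It passed, at 0.22 (adjusted p = 0.0258), without replicate 1 of the group with serine and glycine.

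**Figure D4:**
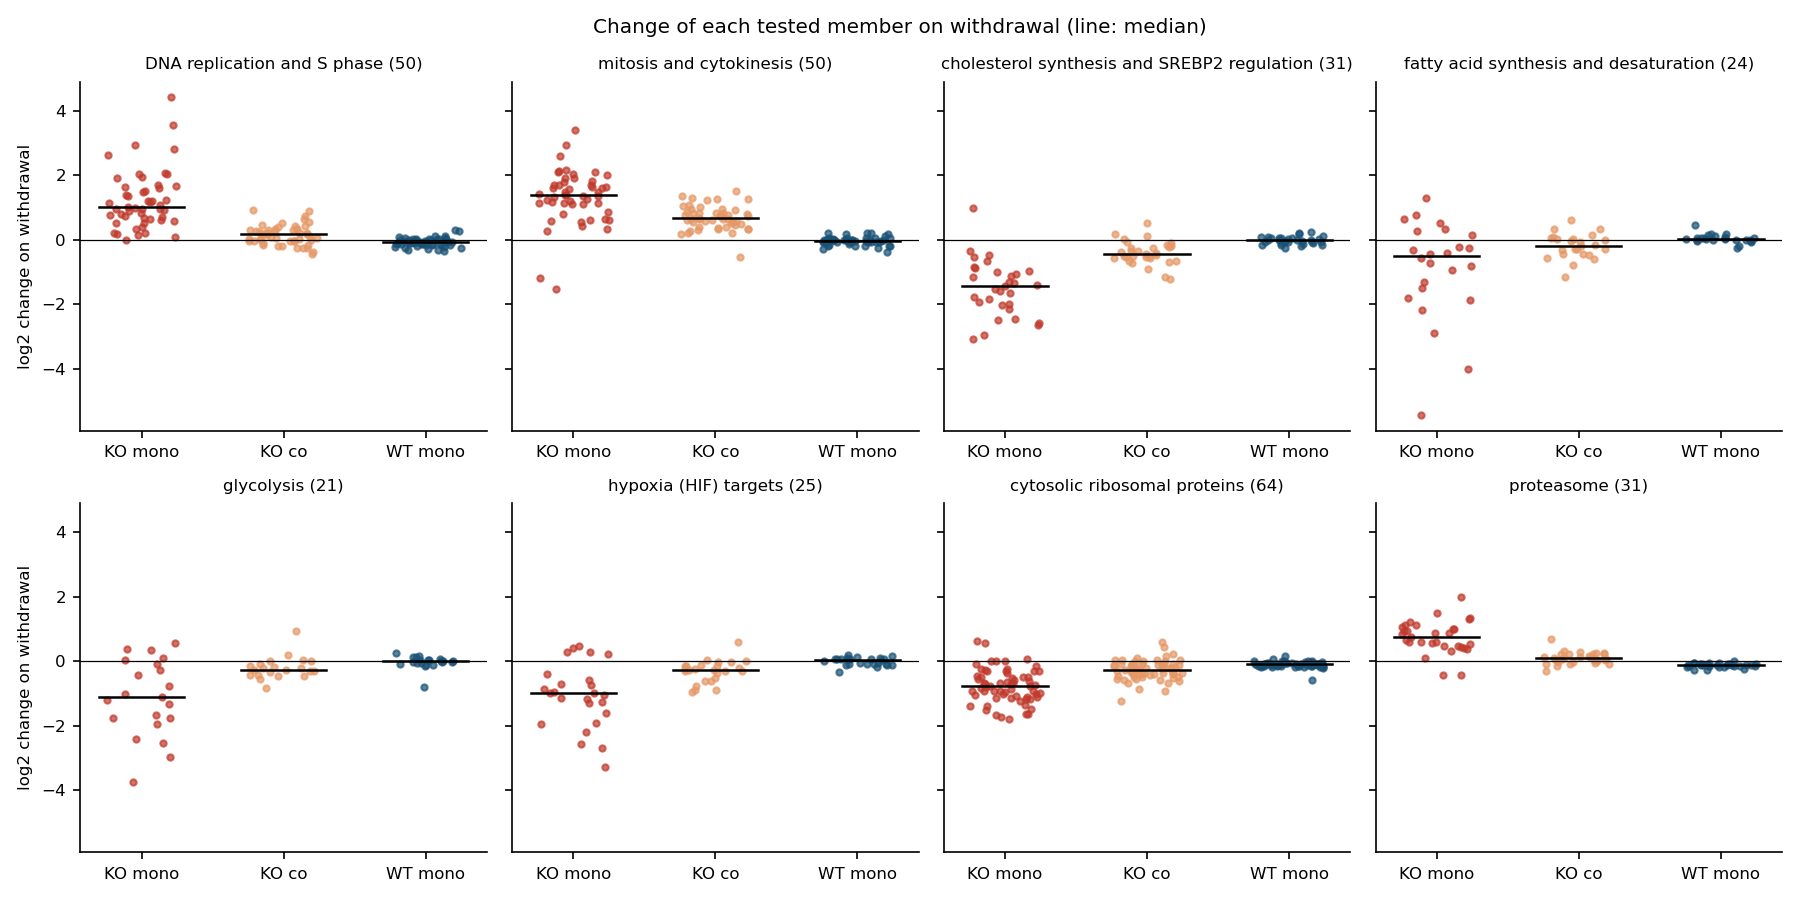
Log2 change on withdrawal of each tested member of 8 gene lists in KO monoculture, KO coculture and WT monoculture; each point is a gene and each line the list median. The medians in KO monoculture run from 1.38 for mitosis to −1.43 for cholesterol synthesis, against 0.67 and −0.44 in KO coculture and −0.03 and −0.01 in WT monoculture. Fatty acid synthesis has the KO monoculture median nearest 0, at −0.5.

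Ligands of the EGF receptor family diverged. Of 11 tested ligands and receptors 7 rose and 3 fell. Ereg, epiregulin, had 172, 145 and 152 FPKM without and 8.19, 5.07 and 5.99 FPKM with serine and glycine, a rise of 4.43 ± 0.13 (adjusted p = 2.84e-16). Areg, amphiregulin, had 857, 728 and 746 FPKM without and 107, 63.6 and 65.2 FPKM with serine and glycine, a rise of 3.33 ± 0.16, and Btc, betacellulin, rose by 2.61. Tgfa and Hbegf, 2 other ligands of this family, changed by −0.84 and −0.51, and the receptor gene Erbb2 by −0.91. Of 40 tested AP-1, MAPK feedback and immediate early genes 18 rose (45%) and 14 fell (35%), close to the shares of all tested genes. Junb had 226, 349 and 334 FPKM without and 47.7, 143 and 137 FPKM with serine and glycine, a rise of 1.59 ± 0.32, while Jun changed by −0.51 and the MAPK inhibitor Spry1 by −2.36. Junb was lowest in replicate 1 of each group.

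Of 32 tested epithelial genes 15 rose (46.9%) and 12 fell (37.5%), against 36.2% and 34.5% of all tested genes. Krt8, the keratin of simple epithelia, had 1350, 1480 and 1430 FPKM without and 281, 344 and 340 FPKM with serine and glycine, a rise of 2.15 ± 0.07, and Krt18, its partner, rose by 1.22; keratin reads can be shared with pseudogenes. Sox9, a ductal transcription factor, had 51.4, 55.5 and 58 FPKM without and 7.44, 8.26 and 8.19 FPKM with serine and glycine, a rise of 2.64 ± 0.08. Lgals4 and Muc1, given above, were members of the same list. Of 36 tested mesenchymal, matrix and TGF-beta response genes 17 fell and 9 rose, the activin subunit gene Inhba rising by 2.60 and the matricellular gene Ctgf changing by −1.62. Of 14 tested interferon and antigen presentation genes 9 fell and 3 rose, with B2m, the light chain of MHC class I, at 59.2, 55.1 and 50.8 FPKM without and 208, 148 and 148 FPKM with serine and glycine, and Cd274, the gene of PD-L1, changing by −1.22. The 19 tested NF-kB and cytokine genes gave 8 rises and 8 falls (42.1% each), among them Il33 with 2.21 and Cxcl5 with −1.88. Their median was 0.18, and 0.03 without replicate 1 of both groups.

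Clock genes other than Nr1d1 moved less. Of 17 tested clock genes 9 rose and 4 fell. Clock rose by 1.44, Arntl, its partner BMAL1, by 1.07 and the repressor Per2 by 1.12. Arntl had 9.73, 10 and 9.99 FPKM without and 4.71, 3.97 and 3.94 FPKM with serine and glycine. Among small noncoding transcripts, the mitochondrial tRNA gene mt-Tp had 177, 144 and 152 FPKM without and 2620, 1100 and 1380 FPKM with serine and glycine, and mt-Te rose by 2.84, a call lost without replicate 1 of both groups (2.35, adjusted p = 0.053). RNA shorter than the library fragments is measured poorly by FPKM, and the sources used here do not say whether counting used the strand, so these 2 values may include reads of overlapping transcripts.

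**Figure D5:**
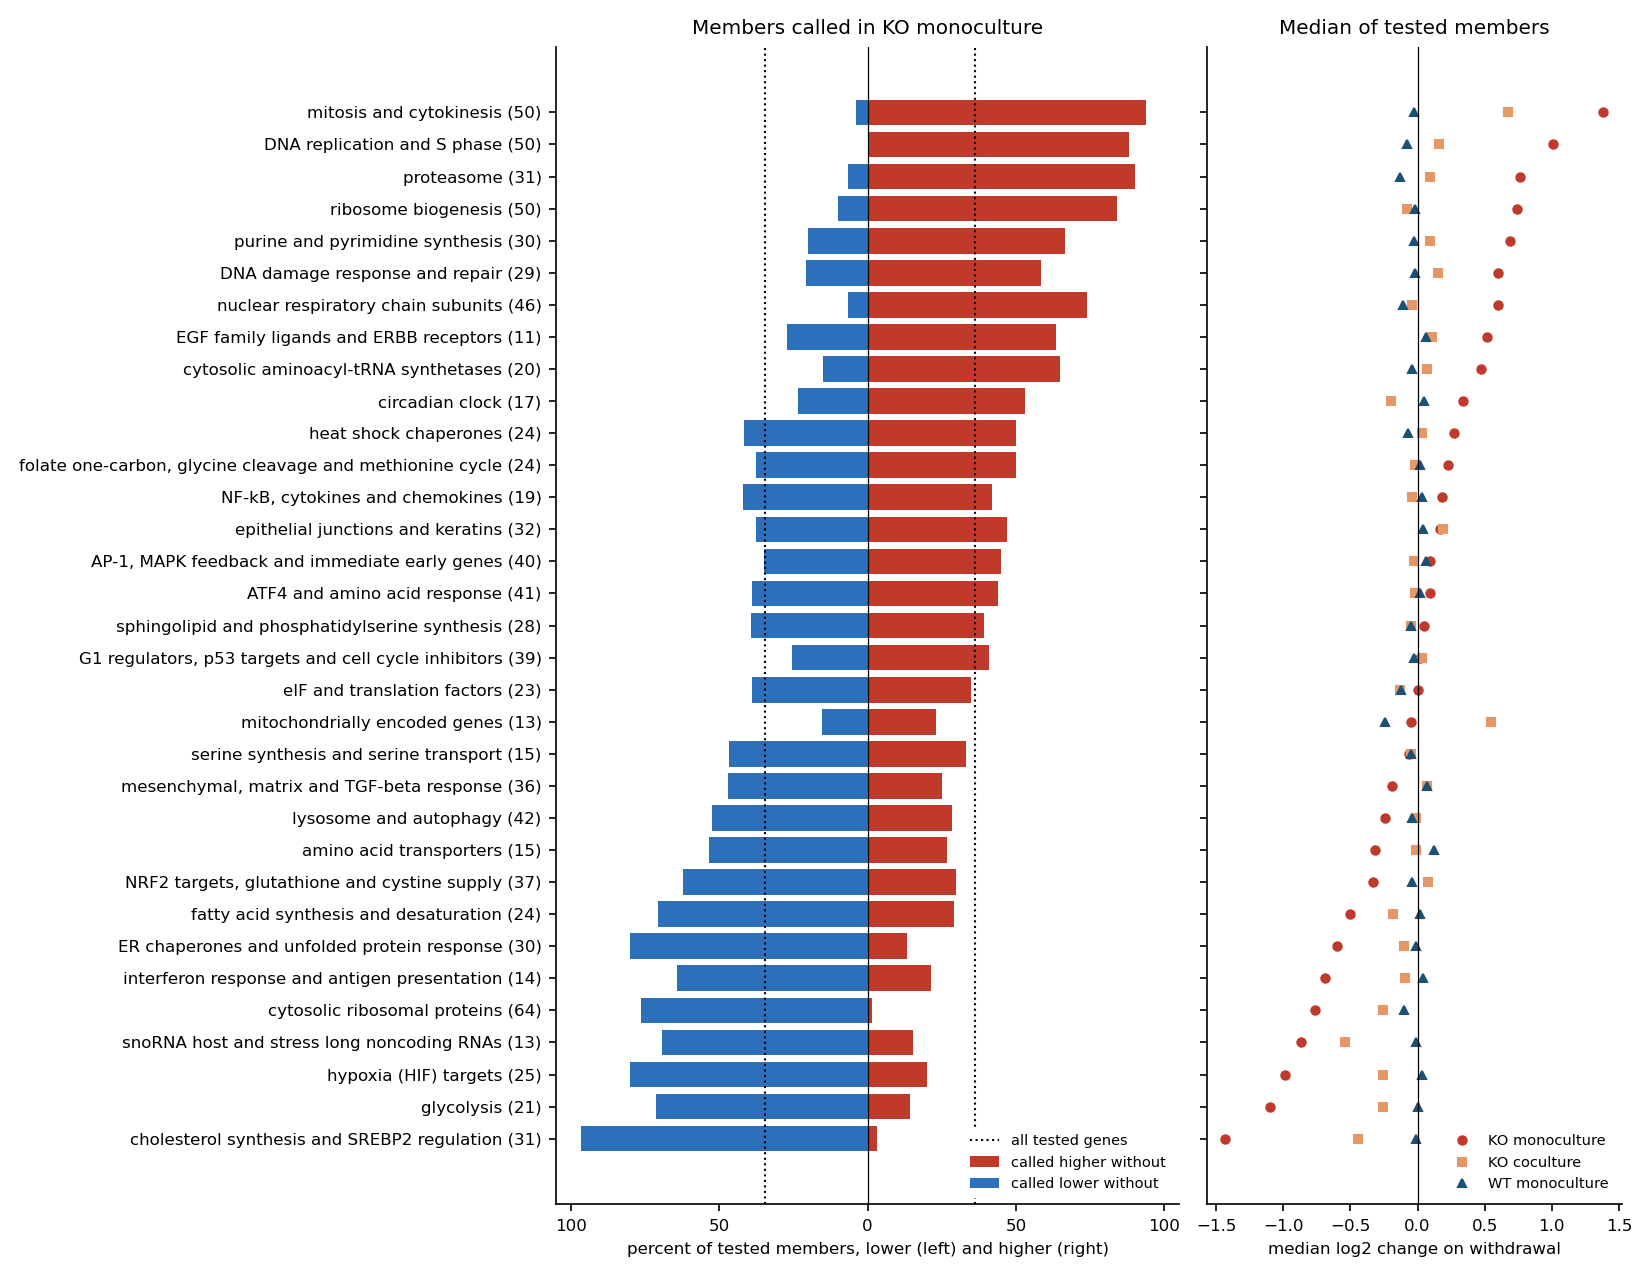
Left, percent of the tested members of 33 gene lists that rose or fell on withdrawal in KO monoculture, with dotted lines at the shares of all tested genes (36.2% higher, 34.5% lower); right, the list medians of the log2 change in KO monoculture, KO coculture and WT monoculture. S phase, mitosis, proteasome and ribosome biogenesis lie at the rising end and cholesterol synthesis at the falling end.

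For the 6 lists given next, the KO medians lay nearer 0 in hepatocyte coculture than in monoculture. The list medians in KO monoculture and KO coculture were 1.01 and 0.16 for S phase, 1.38 and 0.67 for mitosis, −1.43 and −0.44 for cholesterol synthesis, −1.10 and −0.26 for glycolysis, 0.74 and −0.08 for ribosome biogenesis and 0.76 and 0.09 for the proteasome. The 13 mitochondrially encoded genes, a list with a small change in monoculture, had medians of −0.05 in KO monoculture and 0.55 in KO coculture. The difference between the 2 responses passed for 44 of 50 S phase genes, all with the higher response in monoculture, and for 27 of 31 cholesterol genes in the lower direction and 1 in the higher. S phase or mitosis genes that passed the filter only through KO monoculture without serine and glycine could only have the higher response there. Such genes were not counted, and they enter the 44 and the medians of both lists. Among 230 genes named by rule or role, 220 differed between the 2 KO responses, against 57.7% of all tested genes, and 216 between the KO and WT monoculture responses, against 61.2%. Many of these genes were chosen for large changes or differences, so nothing is read from those counts. In 23 of the 230 the KO responses passed in opposite directions and differed from each other, as they did in 697 of all 12061 tested genes (5.78%): Slc7a11 changed by −2.43 in KO monoculture and 0.91 in KO coculture, and Cdkn1a by 1.12 in KO monoculture and −0.44 in KO coculture. Hepatocyte RNA in the coculture libraries was not tested as a part of these differences.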

How the data were processed

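RNA was extracted with RNeasy columns and sequenced through a service company, per the labels' protocols. The deposited values are FPKM per gene, and HISAT2 and the GRCm38 (mm10) build are named in the submitters' processing notes (tool versions, read counter, annotation and strand use: not given in the sources used here). Whole reads were recovered from FPKM times gene length, with 100.0% of values within 0.01 of a whole read in every library, and gave the depths of 15740081 to 23479425 reads; these reads served only the voom alternatives, which called 8631 and 8636 genes under library-total and median-of-ratios scaling.

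Genes with at least 1 FPKM in at least 3 of 24 libraries were kept (12061). limma 3.58.1 in R 4.3.3 was fitted to log2(FPKM + 1) over the 8 group means of all 24 libraries, which leaves 16 residual degrees of freedom, with a trended prior and two-sided tests, and p-values were adjusted by Benjamini-Hochberg over the 12061 genes at a threshold of 0.05. The fit was also run on simulated reads in which few genes changed and the libraries scattered independently. In these data most genes moved and replicate 1 stood apart, so that run does not check the fit in this setting. The members, the 33 gene lists and the 7 marker lists were chosen with earlier results of these data known. Named genes were the 15 largest rises and 15 largest falls with a mean of at least 5 FPKM, the 5 largest differences from WT each way, up to 5 per list, and further genes chosen for their role, some after their values were seen; a few of these genes are not reported here. Motif matches and printed sequences come from RefSeq promoters of GRCm38.p6.

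The replicate numbers are shared between groups in the labels. In KO monoculture the deviations of same-numbered libraries from their group means correlated at 0.4, 0.28 and 0.11 across genes, so the numbers were taken to pair these libraries. The reported changes and p-values come from the fit without this pairing, and the replicate block was run as an alternative only. Libraries 2 and 3 of the 2 groups correlated almost as well across numbers (0.25 and 0.16), and library 1 with libraries 2 and 3 at −0.35 to −0.17, so the pattern mainly sets replicate 1 apart. In WT monoculture the values were −0.03, −0.01 and 0.03. Alternatives were other scalings, pseudocounts and filters, the replicate block, and leaving out each library.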

Additional observations from a re-analysis of the deposited data

Results flagged for a closer look

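Effects of serine and glycine withdrawal that differed between KO monoculture and another setting, by a test of the difference itself, were looked at again. The difference from WT monoculture passed for 7385 genes, and for 216 of the 230 named genes, against 61.2% of all tested genes. The difference from KO coculture passed for 6962 genes, and for 220 of the 230 named genes, against 57.7% of all tested genes. Many named genes were chosen for large changes or differences, so nothing is read from their counts.

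Named genes that passed in opposite directions in the 2 KO settings are given with the log2 change in KO monoculture minus that in KO coculture. These values compare responses to withdrawal, not levels. Genes with the lower response in monoculture included detoxification and redox genes: Vnn1 at −4.48, Gstm1 at −4.46, Slco4a1 at −4.42, Slc7a11 at −3.34 and Gclc at −0.87. The matrix gene Ctgf stood at −2.31, the spindle gene Knstrn at −1.50, Cd14 at −1.07, Anxa13 at −1.04 and Jun at −0.86. Genes with the higher response in monoculture included growth and stress regulators: Cdkn2d at 1.63, Cdkn1a at 1.56, Eif5a at 1.56, Ppp1r15a at 1.51, Atf4 at 1.3, Myc at 1.2, Pcna at 1.18, Ddit3 at 0.95 and Mthfd2 at 0.55. Snhg15 stood at 2.29, Krt7 at 1.80 and the clock genes Ciart and Per2 at 1.68 and 1.39. In KO monoculture the calls of Atf4 (0.22, adjusted p = 0.186) and Gclc (−0.09, adjusted p = 0.241) were lost without replicate 1 of the group with serine and glycine. That of Cd14 was lost with the replicate block and only the 2 groups in the fit (adjusted p = 0.0652). Opposite directions are therefore less certain for these genes. The part of hepatocyte RNA in the listed differences was not tested.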

How the results depend on the processing

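The counts of called genes kept within 1.5 times of the reported ones under every alternative run. For withdrawal in KO monoculture they were 8463 with the replicate block and 8021 with the block and only the 2 groups, 7175 with only the 2 groups, 8255 after quantile normalization, 9640 without the filter on low values and 8291 without replicate 1 of both groups. The block with only the 2 groups was chosen after seeing the data. Leaving out each library gave 8004 to 8625 genes for KO monoculture, 6970 to 7749 for the difference from WT, 6490 to 7196 for the difference from KO coculture and 0.36 to 0.64 for the change in Phgdh. The replicate block with all groups changed no call of a gene named here, while the block fitted to these 6 libraries alone ended those of Atf4, Gclc, Ass1, Egfl7 and Cd14. Of 229 named genes besides Phgdh, 214 kept their direction and side of the threshold under all alternatives. Directions turned after quantile normalization for Nfe2l2 (−0.11), mt-Nd5 (0.03) and Psph (−0.05), and without single libraries for Nfe2l2 (−0.05 to 0.22) and Gldc (−0.02 to 0.09). The cause was not tested. Of 1056 list counts under alternatives 21 moved by more than 1.5 times, among them, after quantile normalization, the rises in glycolysis (5), hypoxia targets (3) and ribosomal proteins (3) and, with only the 2 groups in the fit, the rises in NRF2 targets (7), lysosome genes (7) and fatty acid genes (4). With 3 libraries a group, and few reads over low transcripts, changes of genes near 1 FPKM are measured least well. With a pseudocount of 0.1 or voom on the recovered reads the log2 changes of 28 named genes grew by more than 1.5 times and that of 1 shrank.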
